A study of Mus musculus with 6 samples.

Results

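The 10 genes examined here read out and restrain signalling from receptor tyrosine kinases through the kinase ERK. Dusp4, Dusp5, Dusp6, Spry1, Spry2, Spry4, Spred1, Spred2, Etv4 and Etv5 were compared between mouse tumour cells labelled wild-type and knockout for the kinase SLK. They were chosen by symbol as the DUSP, Sprouty, Spred and PEA3-type ETS genes downstream of this pathway, and all 10 were measured, out of 22180 genes tested. For a gene with several probe sets the brightest over the 6 arrays was read. The samples were total RNA from untreated NeuNDL-derived cells, hybridised to 6 one-colour biotin-labelled arrays, 3 from SLK wild-type cells and 3 from SLK-knockout cells. Both groups share the transformation by NeuNDL, an activated form of the receptor tyrosine kinase Neu (ErbB2), and the same medium with fetal bovine serum and a mammary epithelial growth supplement. Passages 9, 19 and 29 are named for the cultures as a whole. Which array came from which passage or line, and how SLK was deleted, the labels do not say, and the p-values measure the spread between these samples, which may be technical.

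An activated receptor such as ErbB2 recruits adaptors that switch on Ras, and Ras starts the kinase chain Raf, MEK and ERK. ERK then raises the transcription of its own brakes: dual-specificity phosphatases that dephosphorylate it, and Sprouty and Spred proteins that act further up, at the level of Ras and Raf. It also raises the ETS transcription factors of the PEA3 group, so the RNA of these genes is widely used as a readout of ERK pathway activity, including in ErbB2-driven mammary tumours.

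None of the 10 genes passed the test between knockout and wild-type cells. Their log2 fold changes (knockout minus wild-type) ran from -0.24 for Spry1 to 0.18 for Etv5, so the largest was a 1.18-fold difference. Adjusted p-values (limma, Benjamini-Hochberg over all genes, threshold 0.05) lay between 0.27 and 0.99. Over all genes 0.437% were called, so a set of 10 genes without a call is close to the background. At an unadjusted p under 0.05 there were 3 of the 10, namely Spry1, Dusp6 and Etv5, against 10.2% of all genes. The same 3 had groups that did not overlap, Dusp6 and Etv5 with knockout above wild-type (8.79% of all genes) and Spry1 with knockout below (8.1% of all genes), 16.9% of all genes in either direction. The median change was 0.03 for the members and 0.00377 for all genes, and the median absolute change was 0.11 against 0.07. By sign, 6 members had a higher and 4 a lower mean in knockout cells.

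What these arrays could resolve is given by the intervals. The 95% intervals of the members, each for its own gene and not adjusted for the number of genes, reached from -0.40 at the lowest (Spry1) to 0.36 at the highest (Spry4), and 7 of the 10 included 0. The smallest change among all genes called was 0.35 log2 units, or 1.28-fold. All members but Spry1 and Spry4 had an interval wholly inside that size in both directions. That size comes from these same data and is no detection limit, since it depends on the filter and variance model. Without the dimmest 50% of genes Lrig3, described below, was called at -0.25. An interval inside 0.35 therefore does not show that a gene was unchanged. Within the groups 8 of the 10 varied less between arrays than the median gene, with a median pooled SD of 0.07 against 0.10. The members were also brighter than the median gene (4.39), with 53.8% (Spry4) to 93.8% (Spred2) of genes below them. Whether their spread differs from that of equally bright genes was not tested. Because RNA was taken from whole cultures, fewer cells of a type and less RNA per cell cannot be told apart.

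**Figure D1:**
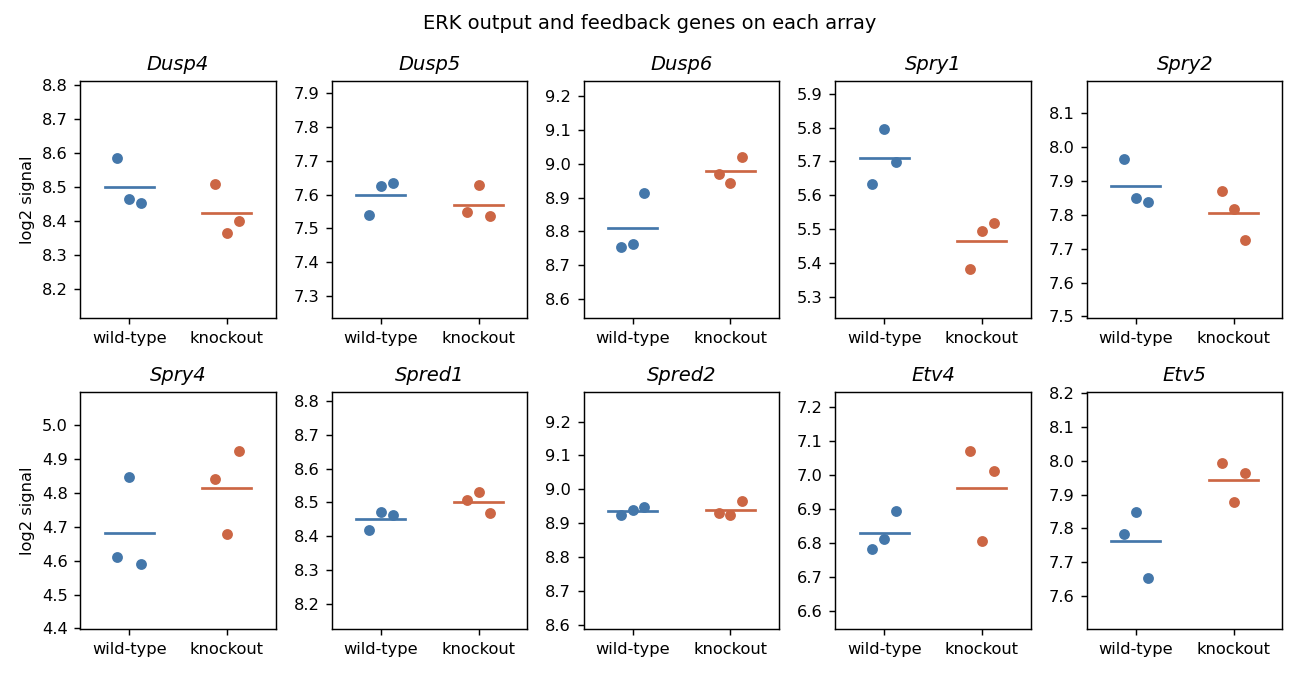
Log2 signal of each of the 10 genes on the 3 wild-type (blue) and 3 knockout (orange) arrays, one point per array in the order of replicates 1 to 3, with a line at the group mean. Every panel spans the same number of log2 units, and the groups are apart only for Dusp6, Spry1 and Etv5.

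**Figure D2:**
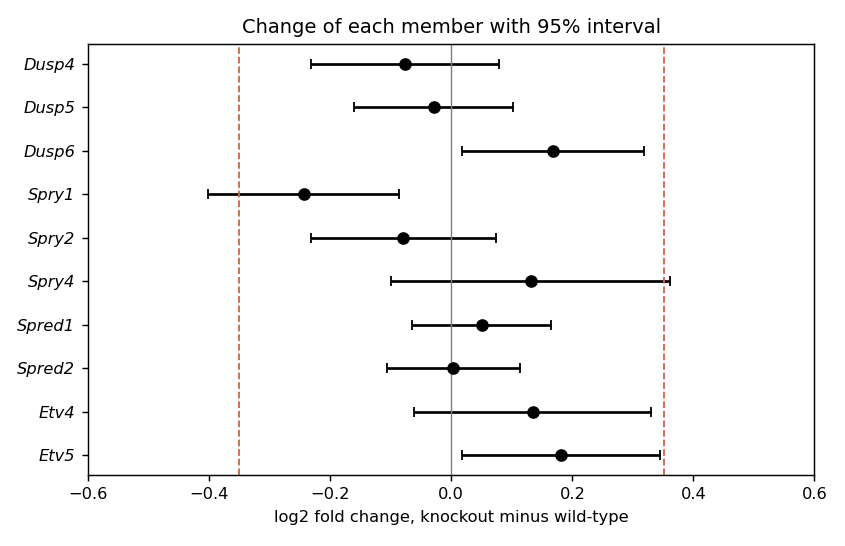
Log2 fold change (knockout minus wild-type) of each gene with its 95% interval from the limma fit, 3 arrays per group. Dashed lines mark 0.35 in either direction, the smallest change among all genes called, which is no detection limit. Only the intervals of Spry1 and Spry4 cross these lines.

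The genotype labels were checked on Slk. Its signal was 8.28 ± 0.07 (SD, n = 3) in wild-type and 7.18 ± 0.03 (SD, n = 3) in knockout cells, a log2 fold change of -1.10 (limma, adjusted p = 0.0021). Array medians lay between 3.93 and 3.97, and the number of arrays limits the precision of every value. Of the 22180 genes, 72 were called higher and 25 lower. The epithelial keratins Krt8 and Krt18 averaged 10.3 to 10.6 in both groups, with log2 fold changes of 0.15 and 0.14 and groups apart. Of 12 measured mammary epithelial markers none was called higher and 2 were called lower, Krt14 and Cdh1. Groups were apart for 5 with knockout above and 4 with knockout below, against 8.79% and 8.1% of all genes. Of 10 fibroblast markers 1 was called lower, Pdgfrb, and groups were apart for 3 with knockout above and 4 with knockout below. The summed linear signal of the list was 760.0 to 805 on wild-type and 749 to 774 on knockout arrays. None of 10 leukocyte markers passed. Their sums were 459 to 497.6 on wild-type and 498.2 to 543 on knockout arrays, every knockout sum above every wild-type sum. The brightest of them were Cd14 and Cd68, at mean log2 signals of 8.11 and 7.13, which weigh most in the sum. Groups were apart for 3 with knockout above (Tyrobp, Fcer1g and Cd14) and 0 below. The defining marker Ptprc averaged 2.22 in wild-type and 2.17 in knockout cells on the log2 scale. Among 8 endothelial markers none passed either, with sums of 155 to 169 and 156 to 172. Groups were apart for 2 with knockout above (Robo4 and Sox17) and 2 with knockout below (Tek and Kdr), against 8.79% and 8.1% of all genes. Values on this scale have no 0 for a silent gene, and the part of these cell types in the results below was not tested.

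The MAP kinase phosphatases come first, since they act on ERK itself. Dusp6, a cytoplasmic phosphatase selective for ERK and itself an ERK target, gave 8.75, 8.76 and 8.91 on wild-type arrays 1 to 3 and 8.97, 8.94 and 9.02 on knockout arrays 1 to 3. Every knockout array was above every wild-type array, though wild-type 3 came close to knockout 2. The log2 fold change was 0.17 (SE 0.06, 95% interval 0.02 to 0.32), which did not pass over all genes (limma, adjusted p = 0.44). A second, much dimmer probe set for Dusp6 lay between 2.42 and 2.69 and had a log2 fold change of -0.09 (SE 0.08), so the mean of both probe sets moved by 0.04.

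The knockout arrays of Dusp4, a nuclear phosphatase for ERK and other MAP kinases, read 8.51, 8.36 and 8.40, and the wild-type arrays 8.59, 8.47 and 8.45. The groups overlapped, and the log2 fold change was -0.08 (SE 0.06, 95% interval -0.23 to 0.08). Dusp5, a nuclear phosphatase that binds ERK alone among MAP kinases, gave 7.54, 7.63 and 7.63 in wild-type cells and 7.55, 7.63 and 7.54 in knockout cells. Its arrays shared the same range in both groups, with a log2 fold change of -0.03 (SE 0.05, 95% interval -0.16 to 0.10). No member of the phosphatase group passed the test, and the directions were mixed.

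The stretch before the start of transcription is shown for Dusp6 and Dusp5 because both genes are known to be switched by factors at the end of the ERK pathway. Capicua (CIC) is a repressor that ERK signalling removes from its targets, and serum response factor (SRF) works with ERK-phosphorylated ETS partners at the CArG box. Sequences are from RefSeq (GRCm38.p6), 250 bases before the start on the strand of the gene, and 7 of the 10 members, with 8 start sites, had an entry. Capitals mark matches on either strand to TGAATG, to the Capicua-type octamers TGAATGAA, TCAATGAA, TGAATGGA and TCAATGGA (TGAATGAA and TGAATGGA contain TGAATG), and to the CArG box. Dusp6 lies on the + strand at chr10:99262981-99263230 and Dusp5 on the + strand at chr19:53528895-53529144.
Dusp6: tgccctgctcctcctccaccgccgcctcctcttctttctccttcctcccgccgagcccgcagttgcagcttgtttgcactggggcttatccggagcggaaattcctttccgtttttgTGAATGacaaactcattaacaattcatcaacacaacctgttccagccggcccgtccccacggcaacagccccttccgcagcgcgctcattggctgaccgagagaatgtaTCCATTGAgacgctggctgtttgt
Dusp5: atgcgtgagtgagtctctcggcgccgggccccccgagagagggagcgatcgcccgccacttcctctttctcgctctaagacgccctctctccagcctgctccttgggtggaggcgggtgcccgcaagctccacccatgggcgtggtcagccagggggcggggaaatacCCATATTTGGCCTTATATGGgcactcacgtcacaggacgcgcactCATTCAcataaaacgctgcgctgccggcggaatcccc
Dusp6 held TGAATG from 133 to 128 bases before the start and an octamer, read on the other strand, from 24 to 17 bases before it. Dusp5 held 2 CArG boxes next to each other, from 82 to 63 bases before the start, and TGAATG on the other strand. Of all 32851 promoter windows of this length, 10.9% held TGAATG, 3.19% an octamer and 1.47% a CArG box. The motifs searched here and below were chosen after the sequences were seen, so these shares are no test of the matches. The matches describe letters and were not tested for binding.

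Sprouty proteins are membrane-associated inhibitors that are induced by growth factor signalling and dampen it between the receptor and Raf. Spry1 had the largest difference of the 10 members. It gave 5.63, 5.79 and 5.70 on the wild-type arrays and 5.38, 5.49 and 5.52 on the knockout arrays, all 3 of them below every wild-type array. The log2 fold change was -0.24 (SE 0.07, 95% interval -0.40 to -0.09), or 1.18-fold lower, and did not pass over all genes (limma, adjusted p = 0.27). By unadjusted p, 705 genes ranked ahead of it, and 7.06% of all genes had a change at least as large.

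Spry2, a Sprouty that also binds the ubiquitin ligase Cbl, gave 7.97, 7.85 and 7.84 in wild-type and 7.87, 7.82 and 7.73 in knockout cells. Knockout 1 lay above wild-type 2 and 3, and the log2 fold change was -0.08 (SE 0.06, 95% interval -0.23 to 0.07). Spry4, an inhibitor of Ras activation and a common marker of ERK output, gave 4.61, 4.85 and 4.59 in wild-type and 4.84, 4.68 and 4.92 in knockout cells. Wild-type 2 and knockout 2 crossed over, and the log2 fold change of 0.13 carried the largest SE of the members, 0.10 (95% interval -0.10 to 0.36). The Sprouty genes thus had means on either side of 0, and none passed.

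The Spry1 stretch is shown because that gene had the largest difference, and the Spry2 stretch because it was the other Sprouty promoter with an entry (Spry1 on the + strand at chr3:37639697-37639946, Spry2 on the - strand at chr14:105896820-105897069).
Spry1: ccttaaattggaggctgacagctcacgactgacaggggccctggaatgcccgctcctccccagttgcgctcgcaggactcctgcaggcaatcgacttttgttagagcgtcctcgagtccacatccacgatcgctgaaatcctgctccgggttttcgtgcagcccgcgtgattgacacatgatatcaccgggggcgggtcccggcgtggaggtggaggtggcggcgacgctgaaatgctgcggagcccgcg
Spry2: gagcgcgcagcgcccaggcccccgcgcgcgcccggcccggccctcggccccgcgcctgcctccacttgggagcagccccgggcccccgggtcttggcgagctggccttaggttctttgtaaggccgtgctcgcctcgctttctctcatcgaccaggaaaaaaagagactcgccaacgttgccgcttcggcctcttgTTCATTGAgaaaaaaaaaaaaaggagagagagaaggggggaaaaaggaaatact
The Spry2 window held an octamer on the other strand from 54 to 47 bases before the start, while Spry1 held none of the 3 kinds of letters marked. Neither had a CCGGAAGT (an ETS site), a TGANTCA (an AP-1 site) or a TGACGTCA (a cAMP response element), which were found in 2.88%, 6.75% and 1.55% of all windows, and no other member window held these either.

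Spred proteins are relatives of Sprouty that bring the Ras inactivator neurofibromin to the membrane. Both members were the steadiest of the set. Spred2 gave 8.92, 8.94 and 8.95 on the wild-type arrays and 8.93, 8.92 and 8.97 on the knockout arrays, a log2 fold change of 0.0032 (SE 0.05, 95% interval -0.11 to 0.11). Its pooled SD of 0.02 was smaller than that of all but 1.01% of genes. The arrays of both genotypes covered the same narrow range. Spred1 gave 8.42, 8.47 and 8.46 in wild-type and 8.51, 8.53 and 8.47 in knockout cells, with overlap at knockout 3 and wild-type 2 and a log2 fold change of 0.05 (SE 0.05, 95% interval -0.07 to 0.17). Nf1, which encodes neurofibromin, had a log2 fold change of 0.0052 (SE 0.05), a gene looked up after the members' values were seen.

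Etv4 and Etv5 are the PEA3-type transcription factors of the set, which carry the ERK signal on to genes of growth and invasion. Etv5 gave 7.78, 7.85 and 7.65 in wild-type cells and 7.99, 7.88 and 7.96 in knockout cells. All knockout arrays were above all wild-type arrays, with knockout 2 just above wild-type 2. The log2 fold change was 0.18 (SE 0.07, 95% interval 0.02 to 0.35), short of the threshold over all genes (limma, adjusted p = 0.44). A second, dimmer probe set for Etv5 had a log2 fold change of 0.02 (SE 0.20), so the mean of both gave 0.10. Etv4, also known as PEA3 and reported to be abundant in Neu-driven mammary tumours, gave 6.78, 6.81 and 6.89 in wild-type and 7.07, 6.80 and 7.01 in knockout cells. Knockout 2 fell among the wild-type arrays while the other two stood above them, and the log2 fold change was 0.13 (SE 0.08, 95% interval -0.06 to 0.33). With 1 array left out the change of Etv4 ranged from 0.08 without knockout 1 to 0.21 without knockout 2 (limma, adjusted p between 0.40 and 0.83).

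For Etv5 the promoter table gave 2 start sites, and the one further downstream is shown because it held TGAATG 3 times (- strand, chr16:22438369-22438618), while the other window held no match to any motif searched.
Etv5: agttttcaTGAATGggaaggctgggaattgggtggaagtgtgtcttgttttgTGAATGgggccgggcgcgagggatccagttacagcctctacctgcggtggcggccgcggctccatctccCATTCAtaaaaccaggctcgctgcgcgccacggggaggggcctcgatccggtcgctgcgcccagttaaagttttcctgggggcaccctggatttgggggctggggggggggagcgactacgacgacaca
The matches begin 242, 198 and 129 bases before the start, the last on the other strand. The 8 member windows had a median GC content of 62.4%, against 52.4% for all windows.

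**Figure D3:**
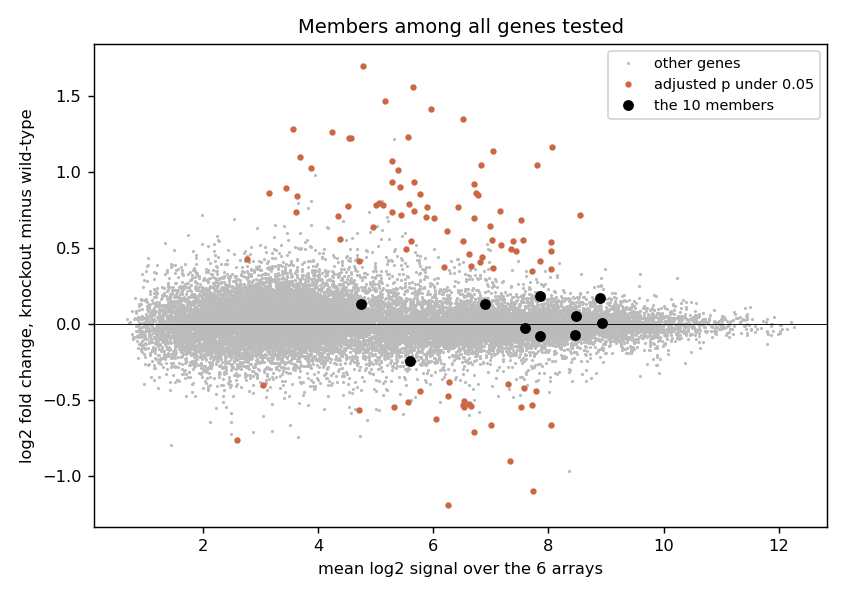
Log2 fold change against mean log2 signal for all 22180 genes (grey), the 97 genes with adjusted p under 0.05 (orange) and the 10 members (black). The members lie between -0.24 and 0.18, inside the cloud of genes that were not called.

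The rest of the pathway was read from 3 lists. Of 30 listed genes of the cascade from receptor adaptors to ERK and its substrate kinase RSK, 22 were measured and the others were not analysed here. None passed, none had an unadjusted p under 0.05, and all changes lay between -0.12 and 0.07, with a median of -0.01. The smallest p-values belonged to Map2k1, which encodes the ERK-activating kinase MEK1 (log2 fold change 0.07, SE 0.05), the adaptor gene Grb2 (-0.12, SE 0.08) and the adaptor gene Shc1 (-0.06, SE 0.05). The probe set annotated to mouse Erbb2 had a log2 fold change of -0.05 (SE 0.05), and whether it also reads NeuNDL RNA was not tested.

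Closest to the members by kind are the other MAP kinase phosphatases and feedback inhibitors. None of 19 passed over all genes (background 0.437%), with a median change of 0.04. An unadjusted p under 0.05 was seen for 6 of the 19, against 10.2% of all genes. The groups did not overlap for 4 with knockout above and 4 with knockout below wild-type, against 8.79% and 8.1% of all genes. Lrig3, of a family of membrane proteins that regulate growth factor receptors, gave 6.73, 6.70 and 6.62 in wild-type and 6.44, 6.46 and 6.41 in knockout cells, groups apart, with a log2 fold change of -0.25 (SE 0.05, limma, adjusted p = 0.17). It passed without the dimmest 50% of genes (limma, adjusted p = 0.030) and with an intensity trend in the variance (0.036). Dusp1, a phosphatase of stress-activated kinases and ERK, had 0.23 (SE 0.06) and also had groups apart. Spry3, the remaining Sprouty gene, had 0.55 with an SE of 0.17 at a signal of 2.01 in wild-type cells, and its groups overlapped. The means of these genes lay on both sides of 0, as for the members, 12 higher and 7 lower in knockout cells.

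Other transcriptional outputs of ERK gave the same count of 0, among 24 measured of 26 listed (background 0.437%), with a median change of 0.0067. The list also holds Srf, Elk1, Elk3 and Elk4, transcription factors through which ERK acts, and these enter its counts and median. Areg and Fosl1 were listed but not analysed here. An unadjusted p under 0.05 was seen for 5 of the 24, against 10.2% of all genes, and groups apart for 3 above and 4 below (8.79% and 8.1% of all genes). Etv1, the remaining PEA3-type factor and nearest relative of Etv4 and Etv5, gave 6.46, 6.77 and 6.77 in wild-type cells and 7.28, 7.10 and 7.19 in knockout cells. The groups were apart, with a log2 fold change of 0.52 (SE 0.10, 95% interval 0.28 to 0.76), and it missed the threshold (limma, adjusted p = 0.12). Without the dimmest 50% of genes it passed (limma, adjusted p = 0.027), as it did with an intensity trend (0.0065). Ereg, the ErbB ligand epiregulin, had 0.32 (SE 0.07) and passed only without the dimmest 50% (limma, adjusted p = 0.036), among the 16 alternatives. Egr2, an immediate early transcription factor, had -0.24 (SE 0.06). The lowest change of the list was that of its relative Egr1, at -0.37 (SE 0.11, limma, adjusted p = 0.30), with knockout below wild-type on all arrays. The median absolute change of this list was 0.09, against 0.11 for the members.

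**Figure D4:**
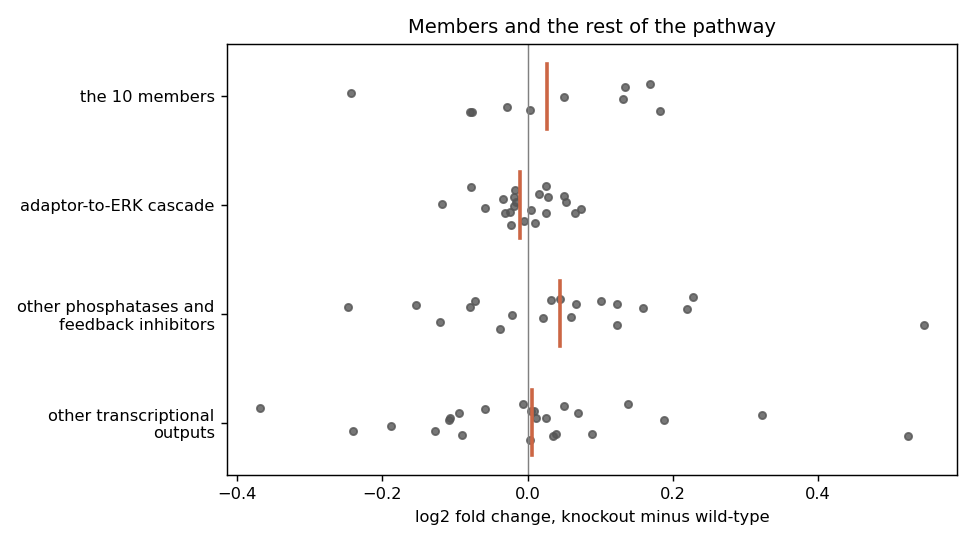
Log2 fold change (knockout minus wild-type) of each measured gene in the set of 10 and in the 3 pathway lists of 22, 19 and 24 genes, jittered vertically, with an orange line at each median. The cascade genes stay between -0.12 and 0.07, and the points farthest right are Spry3 (0.55) and Etv1 (0.52).

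The genes with the profile most like that of the members with the smallest p-values were found by the root mean square difference of mean-centred log2 values over the 6 arrays, among 22179 genes. For Spry1 they were Cd83 (0.017), Sema3a (0.034) and Slc39a12 (0.036). For Dusp6 they were Dach1, Slc4a11 and Bank1, with differences of 0.024, 0.025 and 0.025 log2 units. None of these 6 genes was called in the comparison of genotypes, with limma adjusted p-values between 0.20 and 0.41. Because they were picked for profiles close to those of uncalled members, this is no separate result.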

How the data were processed

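The deposited table holds log2 signals per probe set (41345 probe sets, 6 arrays), made by the authors with Affymetrix Expression Console 1.4.1.46 per the submitters' processing notes. Background correction, normalization, summarisation and log base were not given in the sources used here. Natural logarithms of 16-bit signals end at 11.1 and these values reach 12.4, so they were taken as log2. Such values compress fold changes of dim genes, and whether a gene was detected was not assessed. Probe sets with exactly 1 symbol in the platform's annotation were kept, the brightest for each of 1082 symbols with several, which left 22180 genes. Groups follow the sample titles. Knockout was compared with wild-type on all 6 arrays without a covariate, using limma 3.58.1 under R 4.3.3 (two-sided, Benjamini-Hochberg over all genes), and SEs and 95% intervals are its moderated ones. The fit was tested on simulated data. Named genes are the members, Slk, the 3 of each pathway list with the smallest p and the 3 nearest profiles of Spry1 and Dusp6. Members and lists were chosen with earlier results of these data known, and the promoter motifs after the sequences were seen. Marker genes, Nf1, Erbb2, Egr1, Dusp3 and Dusp22 were named beside them, Nf1, Egr1, Dusp3 and Dusp22 after their values were seen. Replicate numbers recur in both groups, and deviations of same-numbered arrays correlated little, which cannot show whether they share a passage or batch. Alternatives were other normalizations, filters on dim genes, probe set rules, variance models, array weights, a replicate block and leaving out each array.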

Additional observations from a re-analysis of the deposited data

How the results depend on the processing

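None of the 10 members was called under any of the 16 alternatives, and all but Spred2 kept the sign of their change in each of them. Spred2, whose change was 0.0032, turned to -0.00026 with median centring and ranged from -0.0096 to 0.012 with 1 array left out. The smallest adjusted p of a member was 0.076, for Spry1 without the dimmest 50% of genes. Slk stayed past the threshold throughout (adjusted p up to 0.046, limma). The number of all genes called, 72 higher and 25 lower, became 143 and 63 when the dimmest 30% of genes were left out, 202 and 139 for the dimmest 50%, 265 and 176 with an intensity trend, 264 and 179 with a robust trend, and 25 and 4 over all probe sets, where more were tested. With 1 array left out it ranged from 13 to 24 higher and from 2 to 5 lower. The other MAP kinase phosphatases and feedback inhibitors went from 0 to 1 lower without the dimmest 50% and with either trend, and the other transcriptional outputs from 0 to 2 higher without the dimmest 50% and to 1 higher with either trend. The cause was not tested. Deviations of same-numbered wild-type and knockout arrays from their group means correlated at 0.04, 0.02 and -0.07, those of differently numbered arrays at -0.12 to 0.11. With 3 arrays per group this cannot show whether same-numbered arrays share a passage or batch. The replicate block gave 5 genes higher and 1 lower, with no member called and Spry1 lowest (limma, adjusted p = 0.36).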

Other observations

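All 24 measured genes with DUSP symbols were also read as a family, chosen after the values were seen. They include 3 of the 10 members, Dusp4, Dusp5 and Dusp6, and the DUSP genes of the list of other phosphatases. The counts therefore overlap with those given above, and Dusp6 is among the genes with groups apart. None of the 24 passed (limma, Benjamini-Hochberg over all genes), where 0.437% of all genes did, 7 had an unadjusted p under 0.05, against 10.2% of all genes, and the median change was -0.00034. The ends of the range were the atypical phosphatases Dusp3, with a log2 fold change of -0.20 (SE 0.08, limma, adjusted p = 0.44), and Dusp22, with 0.44 (SE 0.09, adjusted p = 0.12). In 9 of these 24 genes the groups did not overlap, against 16.9% of all genes.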
